A study of Mus musculus with 15 samples.

Results

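Dbp, Tef, Hlf and Nfil3 are 4 of the 54532 genes in the deposited count table, chosen by their gene names and followed in all 15 mouse liver libraries. They were chosen with their levels in these libraries already known, so their levels and fold changes are given as a description and no test is read from them. All 4 passed the filter on low counts, which kept 14219 genes. The study set a single dose of methotrexate (MTX), an antifolate drug that injures liver, against control liver, and MTX after nitrate in the drinking water against MTX alone. All groups were labelled wild type, with 5 libraries each. The control group is labelled only as control. The MTX group received 20 mg/kg MTX by intraperitoneal injection, with the liver taken 24 h later. The MTX+nitrate group drank water with 2 mM nitrate over 5 days, with the same MTX dose on day 5. There was no group with nitrate alone. The sources used here do not give strain, sex, age, the vehicle of the controls or the clock time of liver collection.

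DBP, TEF and HLF are the proline and acidic amino acid-rich (PAR) subfamily of basic leucine zipper transcription factors. They are outputs of the circadian clock in liver, accumulate rhythmically, and activate genes through a DNA element called the D-box. NFIL3, also called E4BP4, is a basic leucine zipper repressor that binds the same element, and its own transcript peaks at a phase opposite to that of Dbp. BMAL1 (gene Arntl) with CLOCK or NPAS2 activates Dbp through E-boxes, whereas the REV-ERB repressors (Nr1d1, Nr1d2) act on Nfil3 through a ROR response element (RRE). Since these transcripts cycle through the day, a difference in collection time between groups, if there was one, cannot be told apart from the treatments here.

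Dbp (ENSMUSG00000059824) lies at chr7:45705088-45710203 on the plus strand of GRCm38, and 3 of its 5 annotated transcripts code for protein. Tef (ENSMUSG00000022389) lies at chr15:81802421-81826863 on the plus strand, with 4 protein-coding transcripts of 10. Hlf (ENSMUSG00000003949) lies at chr11:90336536-90390895 on the minus strand, with 2 of 6. Nfil3 (ENSMUSG00000056749) lies at chr13:52967209-52981073 on the minus strand, with a single transcript. The 3' part of Dbp overlaps the opposite-strand gene Sphk2, a sphingosine kinase, over 539 exon bases, or 18.0% of the exon bases of Dbp. The sources used here do not say whether counting used strand, so reads from that stretch may belong to either gene.

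The 250 bases upstream of each start in the RefSeq table were searched on both strands for the E-box CACGTG, the cAMP response element (CRE) TGACGTCA, the RRE core TAGGTCA, and the D-box forms TTATGTAA, TTATGCAA and TTACGTAA. The windows below, from RefSeq on GRCm38.p6, are those of these genes that hold a match, printed on the strand of the gene with the match in capitals. Tef has 2 annotated starts, at chr15:81802423-81802672 and chr15:81811164-81811413, each with an E-box, at -127 and -138 from the start. The Hlf window, chr11:90390918-90391167 on the minus strand, holds a CRE at -9. The Nfil3 window, chr13:52981040-52981289 on the minus strand, holds the RRE core, read here on the other strand, at -12.
Tef first start: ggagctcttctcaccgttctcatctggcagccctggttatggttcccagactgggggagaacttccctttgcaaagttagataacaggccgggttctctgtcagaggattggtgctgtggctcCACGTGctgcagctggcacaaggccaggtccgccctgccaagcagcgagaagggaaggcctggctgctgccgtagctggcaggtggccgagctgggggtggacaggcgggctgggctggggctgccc
Tef second start: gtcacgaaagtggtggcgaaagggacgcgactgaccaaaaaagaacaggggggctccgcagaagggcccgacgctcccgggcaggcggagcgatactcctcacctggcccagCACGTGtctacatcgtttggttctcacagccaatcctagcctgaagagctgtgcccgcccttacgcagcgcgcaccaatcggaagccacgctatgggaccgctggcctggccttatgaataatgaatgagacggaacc
Hlf: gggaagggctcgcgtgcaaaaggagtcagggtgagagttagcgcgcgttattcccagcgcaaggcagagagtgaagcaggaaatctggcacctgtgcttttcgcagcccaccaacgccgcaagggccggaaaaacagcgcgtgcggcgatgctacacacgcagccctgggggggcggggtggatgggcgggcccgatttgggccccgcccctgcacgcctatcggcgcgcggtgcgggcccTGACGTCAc
Nfil3: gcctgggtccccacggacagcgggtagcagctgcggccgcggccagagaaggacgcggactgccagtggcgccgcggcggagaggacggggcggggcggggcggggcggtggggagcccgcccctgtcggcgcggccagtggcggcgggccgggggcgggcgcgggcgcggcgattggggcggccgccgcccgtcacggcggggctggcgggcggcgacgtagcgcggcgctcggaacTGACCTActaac
Of 32851 such windows, 6.02% held the E-box, 1.55% the CRE, 2.23% the RRE core and 1.61% any of the 3 D-box forms. None of these letters is in the Dbp window, chr7:45704997-45705246. The RefSeq starts differ from the deposited spans given above: both Tef windows lie inside that gene's span, the Dbp and Nfil3 windows in part, and the Hlf window outside it. A match is a run of letters and not a measured binding site.

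Dbp was the member with the widest range. Its level in control replicates 1 to 5 was 84.5, 5.73, 11.0, 30.9 and 6.35 CPM, a count scaled to its library's total. In the MTX livers it was 0.247, 0.410, 5.07, 0.431 and 0.484 CPM, from 4, 7, 87, 7 and 8 counts. In the MTX+nitrate livers it was 1.21, 0.689, 0.737, 0.165 and 0.339 CPM, from 23, 13, 15, 3 and 6 counts. Every treated library was below every control library, MTX replicate 3 stood far above the rest of its group, and the treated groups overlapped each other. The fitted log2 fold change was -4.36 ± 0.86 (SE, n = 5 per group) for MTX against control, or 20.6-fold lower. With nitrate and MTX it was -5.44 ± 0.93 relative to control, or 43.3-fold lower, and -1.07 ± 1.02 relative to MTX alone. Single libraries moved these values: MTX against control was -6.11 without MTX replicate 3 and -3.33 without control replicate 1, MTX+nitrate against control was -4.40 without control replicate 1, and MTX+nitrate against MTX turned to 0.68 without MTX replicate 3. Control Dbp averaged 27.7 ± 33.4 CPM (SD, n = 5), and 13.5 ± 11.9 CPM (SD, n = 4) without replicate 1. In a bulk tissue, fewer cells of a type and less RNA per cell cannot be told apart. The overlapping gene Sphk2 ran from 64.2 to 97.7 CPM in control, 39.1 to 81.6 CPM in MTX and 50.3 to 75.3 CPM in MTX+nitrate livers, so its groups overlapped.

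**Figure D1:**
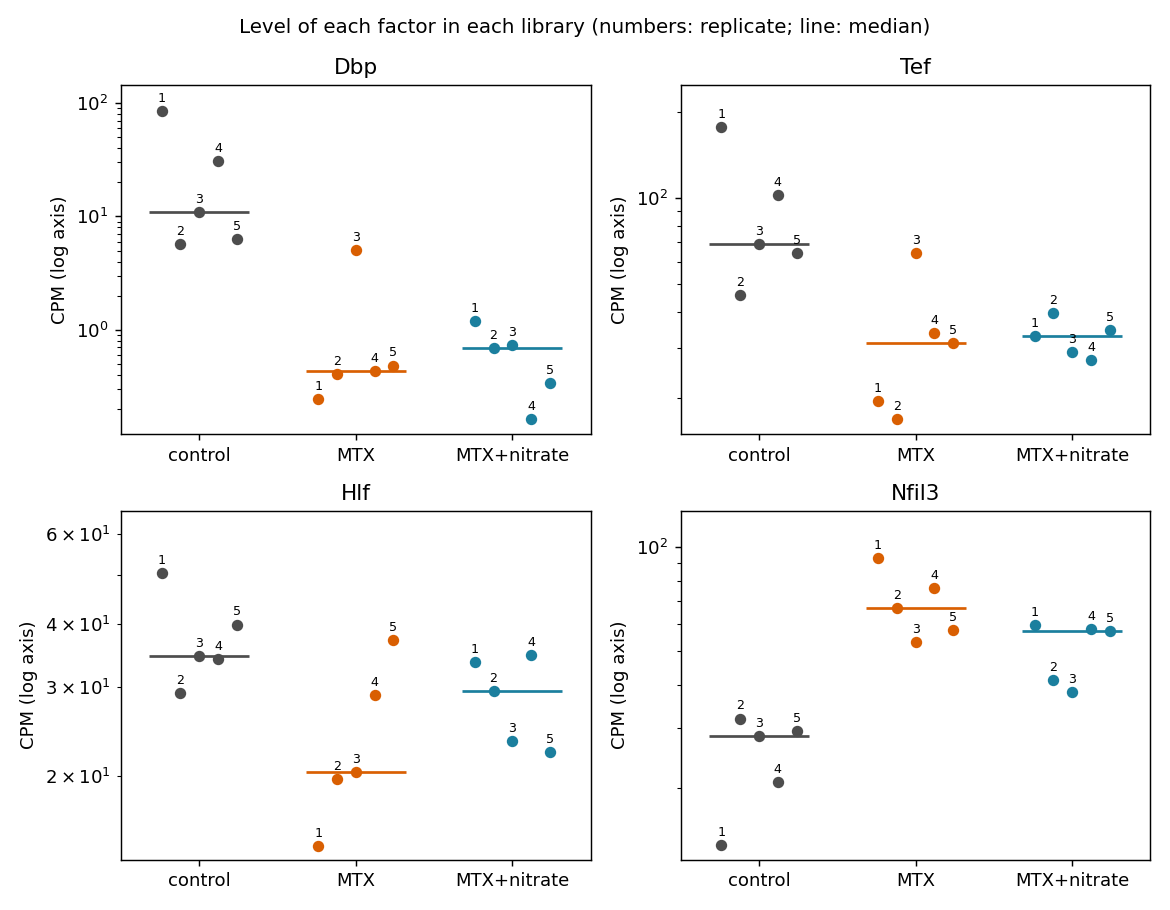
Level of Dbp, Tef, Hlf and Nfil3 in each of the 15 libraries, in CPM on log axes, with replicate numbers beside the points and a line at each group's median (5 libraries per group). Dbp is lower and Nfil3 higher in all 10 treated libraries than in any control library, while the Hlf groups overlap.

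Tef, the PAR factor with the steadiest share of the 3, read 177, 45.7, 68.8, 103 and 64.4 CPM in control livers. It read 19.6, 16.9, 64.2, 33.9 and 31.2 CPM in MTX livers, and 32.9, 39.6, 28.9, 27.2 and 34.6 CPM in MTX+nitrate livers. All MTX+nitrate libraries were below the lowest control, as were the MTX libraries other than replicate 3, which lay within the control range. Its log2 fold change from control was -1.47 ± 0.35 in MTX and -1.49 ± 0.35 in MTX+nitrate livers, and -0.02 ± 0.35 between the treated groups (SE, n = 5 per group). The spread was widest in control, with an SD of 51.8 CPM around 91.7 (23.8 around 70.4 without replicate 1, n = 4), and narrowest in MTX+nitrate, with an SD of 4.91 CPM around 32.6 (n = 5 where not stated).

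Hlf, the third activator, moved least in both comparisons with control. Its control levels were 50.3, 29.2, 34.5, 34.1 and 39.8 CPM. Its MTX levels were 14.6, 19.7, 20.4, 28.9 and 37.2 CPM, and its MTX+nitrate levels 33.6, 29.5, 23.4, 34.6 and 22.3 CPM. All 3 groups overlapped, although MTX replicates 1 to 4 lay below the lowest control. Relative to control, MTX livers gave a log2 fold change of -0.64 ± 0.21, and MTX+nitrate livers gave -0.39 ± 0.21 relative to control and 0.25 ± 0.21 relative to MTX (SE, n = 5 per group).

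Nfil3, the repressor, went the other way. Control livers held 13.7, 31.9, 28.3, 20.9 and 29.2 CPM. MTX livers held 92.8, 66.7, 53.0, 76.3 and 57.7 CPM, and MTX+nitrate livers 59.5, 41.2, 38.1, 57.9 and 57.0 CPM. Every treated library was above every control, and the MTX and MTX+nitrate ranges overlapped. Its log2 fold change from control was 1.48 ± 0.21 in MTX livers, or 2.80-fold higher, and 1.03 ± 0.21 in MTX+nitrate livers, or 2.05-fold higher. Between the treated groups it was -0.45 ± 0.21 (SE, n = 5 per group). In order of group mean, Nfil3 was highest in MTX at 69.3 ± 15.9 CPM, then MTX+nitrate at 50.8 ± 10.2 and control at 24.8 ± 7.44 (SD, n = 5), and only control stood apart without overlap.

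At an adjusted p under 0.05 in edgeR's quasi-likelihood test, 3 of the 4 genes were called in MTX against control, where 3.66% of all genes tested were called. Those were Dbp, Tef and Nfil3, and the count was 1 without control replicate 1, MTX replicate 1 or MTX replicate 2. The same 3 genes were called in MTX+nitrate against control, where 2.41% of genes were called, with 2 or 3 called when 1 library was left out. Between MTX+nitrate and MTX, where 4.31% of genes were called, the count was 0 with edgeR, DESeq2 and limma-voom. In MTX against control DESeq2 called all 4, Hlf included, and limma-voom called 2. In MTX+nitrate against control DESeq2 called 3 and limma-voom 2, so the counts depend on the method. These counts come from the contrasts the genes were chosen on, so they are a description only, and the comparisons share libraries. Among all genes tested, the groups lay wholly apart for 5.42% in MTX against control (2.26% lower, 3.15% higher), as they did for Dbp and Nfil3. They did so for 5.2% in MTX+nitrate against control (2.57% lower, 2.64% higher), as for Dbp, Tef and Nfil3, and for 6.26% in MTX+nitrate against MTX (2.95% lower, 3.31% higher), where none of the 4 members did.

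Levels of different genes were set side by side as CPM per kilobase of the deposited gene length. That length equals the exon bases joined over all annotated transcripts, 10 for Tef, 6 for Hlf, 5 for Dbp and 1 for Nfil3. The order of genes and the shares below depend on that choice of length. In control livers Tef averaged 11.7 ± 6.58, Dbp 9.26 ± 11.2, Hlf 5.63 ± 1.20 and Nfil3 12.2 ± 3.68 CPM per kilobase (SD, n = 5). In MTX livers Nfil3 averaged 34.2 ± 7.83 CPM per kilobase, against 4.21 ± 2.40 for Tef, 3.62 ± 1.33 for Hlf and 0.444 ± 0.699 for Dbp. The MTX+nitrate averages were 25.1 ± 5.05 for Nfil3, 4.15 ± 0.625 for Tef, 4.29 ± 0.845 for Hlf and 0.210 ± 0.135 CPM per kilobase for Dbp. The Dbp mean in MTX rests on replicate 3: in CPM it was 1.33 with that library and 0.393 without it (n = 4), above and below the MTX+nitrate mean of 0.627, so the 2 treated groups have no fixed order for Dbp. Dbp made up 13.0% to 48.5% of the summed PAR factor level in control libraries, 1.64% to 13.1% in MTX and 0.634% to 4.19% in MTX+nitrate. Tef's share changed little in its mean, at 46.5%, 49.3% and 48.1% in the same order, and Hlf's mean share was 26.6%, 46.5% and 49.5%.

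The summed level of the 3 activators was then divided by Nfil3, on the CPM per kilobase scale. The ratio was 8.63, 0.768, 1.26, 2.77 and 1.13 in control replicates 1 to 5. It was 0.104, 0.159, 0.493, 0.233 and 0.340 in MTX, and 0.327, 0.475, 0.395, 0.304 and 0.279 in MTX+nitrate. On this scale the summed activator level exceeded that of Nfil3 in every control library except replicate 2 and in no treated library. The treated groups overlapped. Where the ratio crosses 1 depends on the gene lengths used, 7867 bases for Tef, 6681 for Hlf, 2993 for Dbp and 2026 for Nfil3. In plain CPM, without that scaling, the summed activators exceeded Nfil3 in every control and every MTX+nitrate library and in MTX replicates 3 and 5. They stayed below it in MTX replicates 1, 2 and 4. Tef alone exceeded Nfil3 in MTX replicate 3, at 64.2 against 53.0 CPM. In MTX+nitrate replicate 2, Tef read 39.6 and Hlf 29.5 CPM, against 41.2 for Nfil3. The ratio combines the 4 chosen genes and is a description of transcript levels only.

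**Figure D2:**
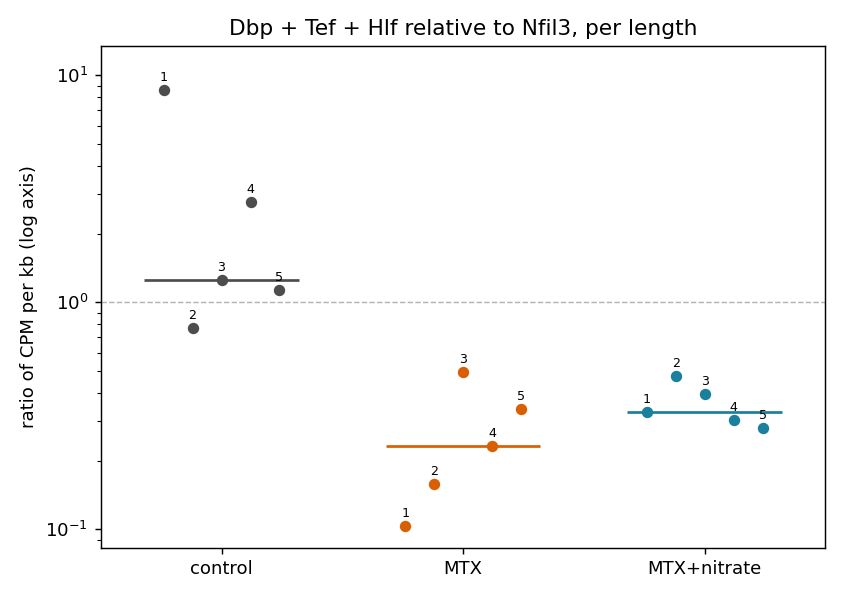
Summed Dbp, Tef and Hlf level divided by the Nfil3 level in each library, both in CPM per kilobase, on a log axis with replicate numbers, group medians and a dashed line at a ratio of 1. All 10 treated libraries lie at or below 0.493 and the control libraries at or above 0.768. Where the ratio crosses 1 depends on the gene lengths used.

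The levels also varied together inside the groups, a comparison that removes the differences between group means. Log2 CPM was centred on each group's mean, and libraries were permuted within groups 100000 times, two-sided, over 15 libraries and 6 pairs of members. Dbp and Tef rose and fell together, with r = 0.873 (permutation p = 0.00059, adjusted 0.00354) and rho = 0.832 (permutation p = 0.00098, adjusted 0.00588). Dbp and Nfil3 ran in opposite directions, with r = -0.779 (permutation p = 0.00196, adjusted 0.00588) and rho = -0.750 (permutation p = 0.00402, adjusted 0.0121). Tef and Nfil3 did so too, with r = -0.738 (permutation p = 0.00481, adjusted 0.00962) and rho = -0.725 (permutation p = 0.00634, adjusted 0.0127). Hlf gave no call with Dbp (r = 0.201, adjusted permutation p = 0.548; rho = 0.239, adjusted 0.421), Tef (r = 0.408, adjusted permutation p = 0.258; rho = 0.400, adjusted 0.290) or Nfil3 (r = -0.366, adjusted permutation p = 0.258; rho = -0.325, adjusted 0.324). For Tef and Hlf, leaving out MTX replicate 3 gave r = 0.605 with an adjusted permutation p of 0.0495. These relations lean on MTX replicate 3 and control replicate 1. Without both, r was 0.610 for Dbp and Tef, -0.596 for Dbp and Nfil3, and -0.467 for Tef and Nfil3, with adjusted permutation p of 0.166, 0.166 and 0.250. Without control replicate 1 alone, the adjusted permutation p was 0.0583 for Dbp and Nfil3 and 0.0895 for Tef and Nfil3.

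Among the control livers, Dbp and Tef ranked the replicates identically from lowest to highest, as 2, 5, 3, 4 and 1. Nfil3 ranked them in exactly the reverse order. In the MTX group, replicate 3 had the highest Dbp and Tef and the lowest Nfil3. The MTX+nitrate group showed no such shared order.

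**Figure D3:**
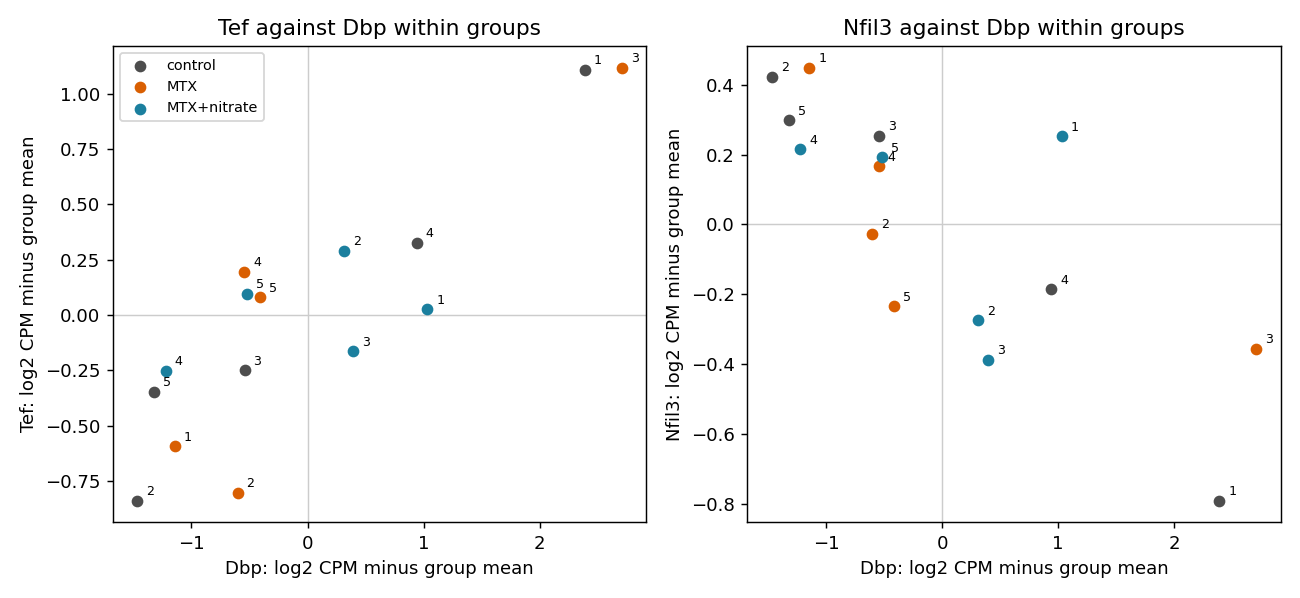
Tef (left) and Nfil3 (right) against Dbp in 15 libraries, each as log2 CPM minus its group mean, coloured by group and labelled by replicate. Dbp and Tef slope upwards (r = 0.873) and Dbp and Nfil3 downwards (r = -0.779), with MTX replicate 3 and control replicate 1 at the right edge of both.

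Across 11508 genes with a mean of at least 2 CPM, the closest in within-group pattern to Dbp were Tef (r = 0.873), Snrnp48 (0.831) and Mapk12 (0.822), the last of which dropped to 0.289 without the 2 farthest libraries. For Tef they were Zfp366 (0.887), Dbp (0.873) and the REV-ERB beta gene Nr1d2 (0.863). For Hlf they were Cxxc5 (0.879) and Pxk (0.878), and for Nfil3 Hirip3 (0.881), Higd1a (0.864) and Elovl1 (0.837). Arntl, the gene of BMAL1, had r = -0.828 with Dbp, -0.815 with Tef and 0.749 with Nfil3. Without the 2 libraries farthest from their group mean, picked for each of these genes, the values were -0.528, -0.476 and 0.524. For Dbp and Tef those were MTX replicate 3 and control replicate 1, and for Nfil3 control replicate 1 and MTX replicate 1. All these correlations are descriptions over 15 libraries that share one table and one normalization.

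Among 15 tested genes of a 17-gene core clock list, 2 fell in MTX against control and 0 rose, where 1.6% of all genes fell and 2.06% rose. Per3, a period gene, fell by 2.07 ± 0.50 (log2 fold change with SE, adjusted p = 0.0330), and Nr1d2 fell by 1.38 ± 0.32 (adjusted p = 0.0308). Both calls were lost without control replicate 1, where Dbp and Tef were highest, or without MTX replicate 1, 2 or 4, and that of Nr1d2 also without control replicate 3 or 4 (adjusted p up to 0.0838 and 0.0815). Without control replicate 1 the log2 fold change of Per3 was -1.19. The list's median was -0.19, against -0.00 over all genes tested. Arntl read 25.4 ± 10.2 CPM in control and 41.0 ± 7.99 CPM in MTX livers (SD, n = 5), with overlapping groups, a log2 fold change of 0.69 ± 0.22 and an adjusted p of 0.0817, which was 0.0224 without control replicate 2.

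Between MTX+nitrate and MTX, 1 core clock gene rose and 0 fell, where 2.37% of genes rose and 1.94% fell. It was Per1, an acutely inducible period gene, at 13.9 to 34.0 CPM in MTX+nitrate, 2.10 to 8.55 CPM in MTX and 2.58 to 17.2 CPM in control livers. Its rise over MTX was 2.68 ± 0.50 on the log2 scale (adjusted p = 0.0151), and the call held in all 10 fits that left out 1 library. The list's median was -0.0065, against 0.0084 over all genes. Against control, 1 of the list (Per1) rose in MTX+nitrate livers and 3 fell (Nr1d1, Nr1d2 and Per3), where 1.41% of genes rose and 0.992% fell, with a median of 0.11 against 0.01. Nr1d1, the REV-ERB alpha gene, fell by 2.57 ± 0.55 (adjusted p = 0.0267) and Nr1d2 by 1.81 ± 0.33 (adjusted p = 0.0109). Leaving out 1 library at a time ended the call of Nr1d1 in 4 of 10 fits (adjusted p up to 0.0695), of Per1 in 8 and Per3 in 7, and of Nr1d2 in 0. The count of 4 went to 1 without MTX+nitrate replicate 2, 3 or 5, and to 2 without MTX+nitrate replicate 4 or control replicate 1 or 3.

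**Figure D4:**
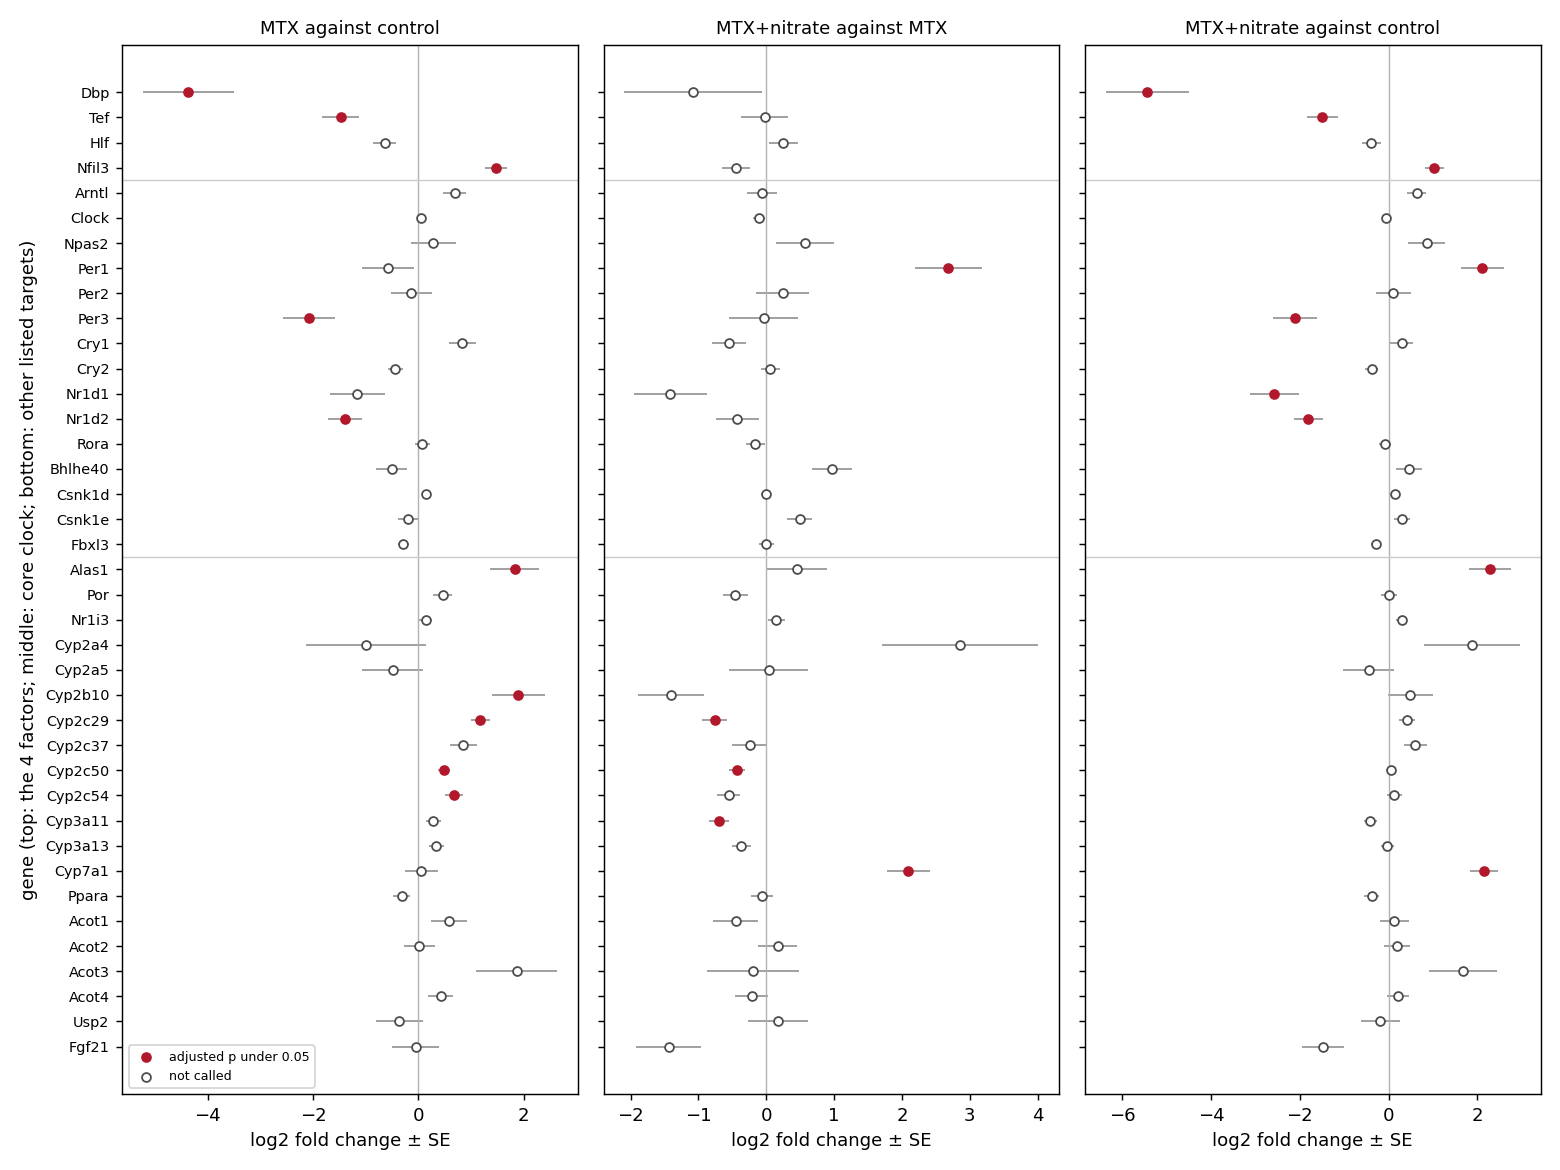
Log2 fold change with its SE for the 4 factors (top), core clock genes (middle) and other listed targets (bottom) in the 3 comparisons, with 5 libraries per group. Filled points have an adjusted p under 0.05 in edgeR, and in both comparisons with control the listed targets lie on both sides of 0 while Dbp and Tef lie below it and Nfil3 above it.

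A list of 27 genes described as D-box or PAR factor targets, all tested, moved in both directions. In MTX against control 5 rose and 2 fell, where 2.06% of all genes rose and 1.6% fell, with a median log2 fold change of 0.14 against -0.00 over all genes. Among those that rose, Cyp2c29 ran from 3350.2 to 4752.5 CPM in MTX against 1323 to 2433 CPM in control livers, without overlap, a rise of 1.18 ± 0.18 (adjusted p = 0.00414) that held in all 10 fits that left out 1 library. Alas1, the rate-limiting enzyme of haem synthesis, rose by 1.83 ± 0.46 (adjusted p = 0.0391), and Cyp2b10, a drug-metabolising cytochrome P450 named here after its values were seen, by 1.90 ± 0.50 (adjusted p = 0.0466). Cyp2c54 and Cyp2c50 rose by 0.68 ± 0.17 (adjusted p = 0.0354) and 0.49 ± 0.11 (adjusted p = 0.0300). Those that fell were Per3 and Nr1d2, which the clock list also holds. When 1 library was left out, the calls of Cyp2b10, Cyp2c54, Cyp2c50 and Alas1 were lost in 9, 7, 6 and 6 of 10 fits (adjusted p up to 0.0938, 0.0856, 0.0789 and 0.112). The count of 7 went to 1 without MTX replicate 1 or 2, and to 2 without control replicate 1, 3 or 4 or MTX replicate 4.

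With nitrate before MTX, relative to MTX alone, 2 targets rose and 3 fell, where 2.37% and 1.94% of all genes did, with a median of -0.22 against 0.0084. The 2 that rose were Cyp7a1 and Per1, and the clock list also holds Per1. Cyp7a1, which catalyses the limiting step from cholesterol to bile acids, ran from 107 to 221 CPM in MTX+nitrate, 26.5 to 42.0 in MTX and 14.2 to 54.7 in control livers. It rose by 2.09 ± 0.32 over MTX (adjusted p = 0.00579) and by 2.16 ± 0.32 over control (adjusted p = 0.00294), in all 10 fits that left out 1 library in each comparison. Cyp3a11 fell by 0.70 ± 0.14 (adjusted p = 0.0209), Cyp2c29 by 0.76 ± 0.18 (adjusted p = 0.0305) and Cyp2c50 by 0.43 ± 0.11 (adjusted p = 0.0430), the first in all 10 such fits, the others in 4 and 1. The count of 5 went to 3 without MTX replicate 2, 3 or 4 or MTX+nitrate replicate 1, 2 or 3. Dbp, Tef, Hlf and Nfil3 gave no call in that comparison. Relative to control 3 rose (Cyp7a1, Alas1 and Per1) and 3 fell (Nr1d1, Nr1d2 and Per3), where 1.41% and 0.992% of all genes did, with a median of 0.13 against 0.01, and the count of 6 went to 2 without MTX+nitrate replicate 2 and to 3 without MTX+nitrate replicate 3 or 5 or control replicate 3. Of those 6 genes, the clock list also holds Per1, Nr1d1, Nr1d2 and Per3.

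Upstream windows were held for 24 of the 27 listed targets, 27 windows in all, and 5 had a D-box form, where 1.61% of 32851 windows did. The list holds genes described as D-box or PAR factor targets, so this count is no test of them. The stretches around the match show the letters that the PAR factors and NFIL3 share, from RefSeq on GRCm38.p6 with the D-box in capitals. Per3 has a pair, on chr4:151044786-151044900 (minus strand), and Per1 has one at chr11:69098895-69098948 (plus). Cyp2b10 and Cyp2a5 have one each, read on the other strand, at chr7:25897570-25897637 and chr7:26835238-26835305 (plus).
Per3: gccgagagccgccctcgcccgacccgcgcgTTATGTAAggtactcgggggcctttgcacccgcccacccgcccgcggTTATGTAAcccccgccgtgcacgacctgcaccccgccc
Per1: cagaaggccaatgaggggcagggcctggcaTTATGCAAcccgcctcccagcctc
Cyp2b10: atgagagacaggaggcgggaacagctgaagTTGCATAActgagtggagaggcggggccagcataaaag
Cyp2a5: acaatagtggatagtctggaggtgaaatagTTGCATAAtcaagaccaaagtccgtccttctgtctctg
These 4 genes did not move as one: in MTX against control Per3 fell, Cyp2b10 rose, and Per1 and Cyp2a5 gave log2 fold changes of -0.57 ± 0.50 and -0.49 ± 0.58 without a call. Cyp2a4, whose letters are close to those of Cyp2a5, is a near copy of it, and reads may have been split between them.

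**Figure D5:**
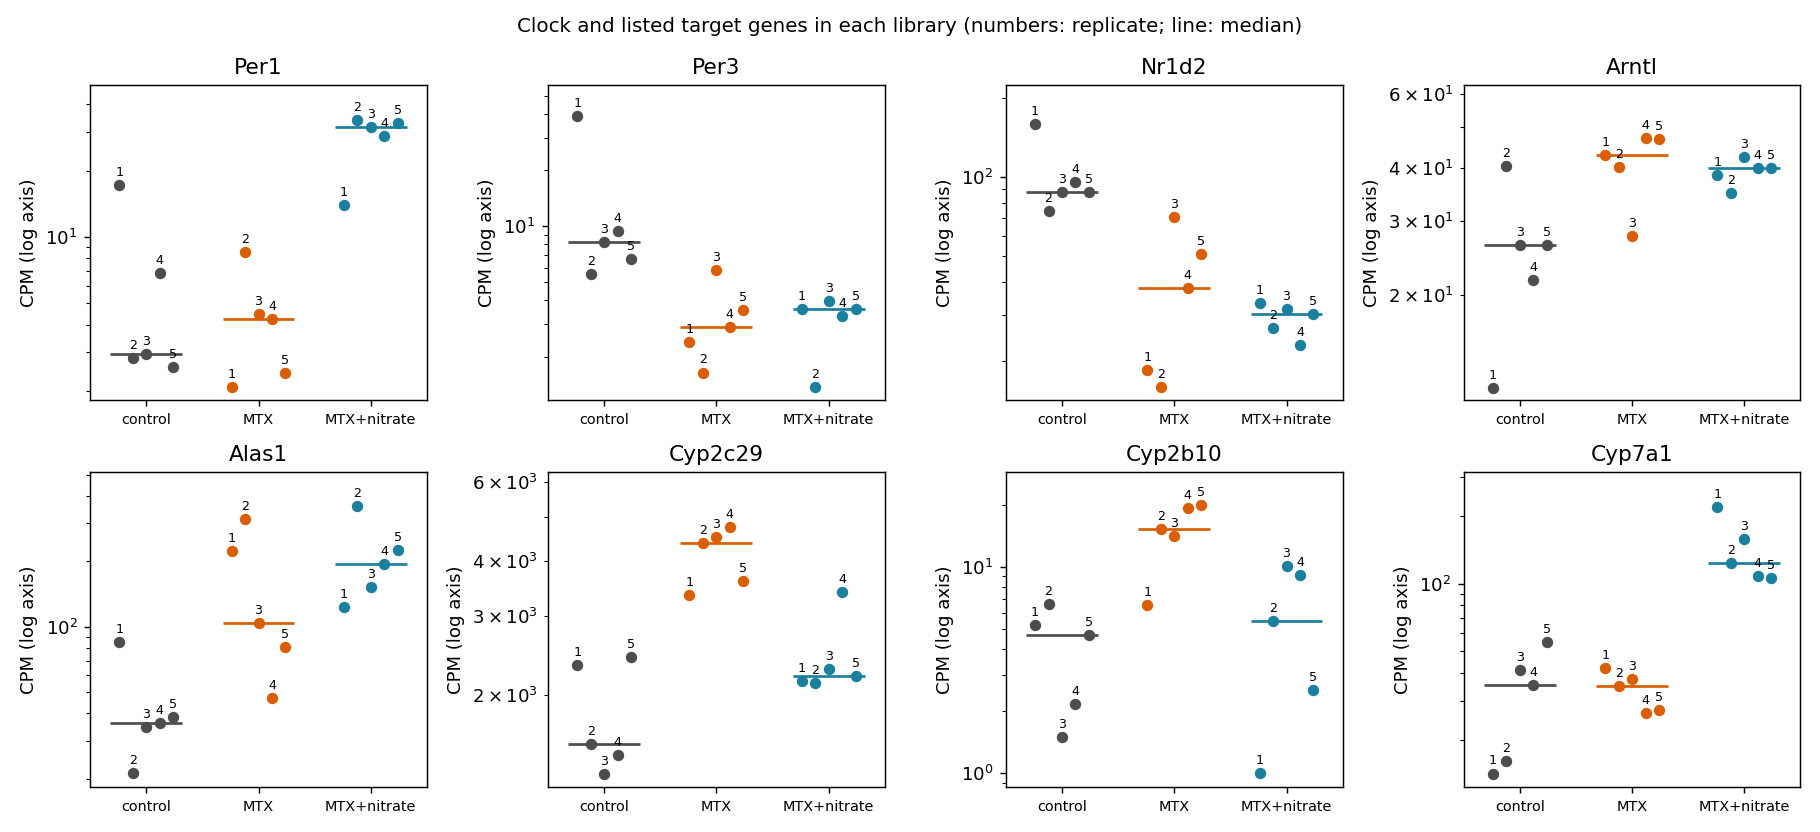
Level of Per1, Per3, Nr1d2, Arntl, Alas1, Cyp2c29, Cyp2b10 and Cyp7a1 in each library, in CPM on log axes, with replicate numbers and group medians (5 libraries per group). Cyp7a1 is higher in every MTX+nitrate library than in any other, at 107 CPM or more, and control replicate 1 stands apart for Per3 at 38.9 CPM.

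Other basic leucine zipper factors of liver, 8 of 9 listed being tested, gave 1 rise and 0 falls in MTX against control (Atf4, an effector of the integrated stress response, 0.47 on the log2 scale, adjusted p = 0.0273), where 2.06% of all genes rose and 1.6% fell, with a median of 0.26. The call of Atf4 was lost in 4 of 10 fits that left out 1 library, without control replicate 1 or 4 or MTX replicate 1 or 2 (adjusted p up to 0.0717). Between MTX+nitrate and MTX, Cebpb rose by 0.72 ± 0.14 (adjusted p = 0.0191, in all 10 fits that left out 1 library) and Cebpa, Creb3l3 and Cebpg fell, at log2 fold changes of -0.46, -0.38 and -0.38, calls that were lost in 8, 9 and 10 of 10 such fits. The list's median there was -0.12, and 2.37% of all genes rose and 1.94% fell. Relative to control 2 rose in MTX+nitrate livers (Atf4 and Cebpd) and 2 fell (Creb3l3 and Cebpa), where 1.41% and 0.992% of all genes did, with a median of 0.25. Those calls were lost in 2, 9, 3 and 9 of 10 such fits for Atf4, Cebpd, Creb3l3 and Cebpa.

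Library totals ran from 16663967 to 19274497 counts. The 7 hepatocyte markers in the table summed to 95705 to 126233 CPM in control, 121599 to 131145 in MTX and 88328 to 132892 in MTX+nitrate livers. Of these, 1 rose in MTX against control, where 2.06% of all genes rose. Nfil3 is also needed by natural killer and innate lymphoid cells. All 8 natural killer and innate lymphoid markers were detected, and summed to 1.22 to 5.87 CPM in control, 1.28 to 2.96 in MTX and 0.959 to 3.49 in MTX+nitrate livers. The 8 Kupffer and myeloid markers summed to 237 to 443, 283 to 396 and 215 to 385 CPM, and the 4 neutrophil markers to 2.52 to 5.88, 1.98 to 27.8 and 2.31 to 5.61 CPM, in the same order. Of the neutrophil markers 2 of 4 fell in MTX+nitrate against MTX, where 1.94% of all genes fell, with a median log2 fold change of -2.38. The 5 endothelial markers summed to 162 to 239 CPM in control, 124 to 173 in MTX and 179 to 243 in MTX+nitrate livers. The treated groups did not overlap, and 1 endothelial marker rose in MTX+nitrate against MTX, where 2.37% of all genes rose. The 4 cholangiocyte markers summed to 6.78 to 13.8, 8.79 to 29.95 and 4.34 to 19.1 CPM, and 1 rose in MTX against control, where 2.06% of all genes rose. The part of other cell types in the levels of the 4 factors was not tested. Longer genes read lower in MTX replicates 1 to 4, where the deviation from the mean correlated with log length at -0.142 to -0.121, against -0.0374 to 0.121 in the other libraries. With that trend and GC content removed, the log2 fold changes in MTX against control were -4.43 for Dbp, -1.43 for Tef, -0.56 for Hlf and 1.37 for Nfil3.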

How the data were processed

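Liver RNA was sequenced in 15 libraries. Per the labels' protocols, RNA was extracted with an RNeasy kit and libraries were made with a SMARTer mRNA kit. The authors deposited raw gene counts with gene lengths and coordinates, on GRCm38 (mm10) per the submitters' processing notes. For the aligner, counter and strand setting: not given in the sources used here. Library totals ran from 16663967 to 19274497 counts.

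Counts were tested with edgeR 4.0.16 (R 4.3.3): filterByExpr, TMM scaling and the quasi-likelihood test in one fit of all 3 groups, with 12 residual degrees of freedom and Benjamini-Hochberg adjustment over 14219 genes. CPM used TMM-scaled library sizes. DESeq2 1.42.0, limma-voom (limma 3.58.1), other filters, 2 groups only, a replicate block, a length and GC trend (chosen after seeing the data) and leaving out each library were alternatives, and the steps were tested on simulated data. The 30 within-group library pairs differed by 21.8 to 59.4 times sampling noise, so none was a duplicate. The labels do not say that each library is its own mouse, so p-values measure the spread between libraries, which may be technical. Length per kilobase used the deposited gene length. Spans and exons were checked in GENCODE M21, and upstream windows came from RefSeq (GRCm38.p6).

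The 4 genes and all lists were chosen with earlier results of these data known. Named are the 4 genes, overlapping genes, up to 6 called genes of the lowest p per list and comparison (the 2 lowest where none was called), and the 3 most like each member within groups. Arntl, Cyp2b10, Cyp2a4 and Cyp2a5 were named after their values were seen. Some genes of the lists and of the rule are not reported here.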

Additional observations from a re-analysis of the deposited data

Results flagged for a closer look

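Among the members, 1 library stood apart from its group. Dbp in MTX replicate 3 was 5.07 CPM, where the other 4 MTX libraries lay between 0.247 and 0.484 CPM. Of 63 gene and group sets of the named genes examined with Dixon's gap criterion, 11 held such a library. The criterion's chance rate of about 1 in 20 holds for independent, normally spread values. Some of these genes vary together and many were named for calls in these data, so that rate is no measure for this count.

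Control replicate 1, which had the highest Dbp and Tef, was also alone for Alas1 (85.7 CPM, others 21.2 to 38.6), Nr1d2 (160.3 CPM, others 74.6 to 96.2) and Per3 (38.9 CPM, others 5.57 to 9.41).

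In the MTX+nitrate group, Cyp2c29 was 3395 CPM in replicate 4 (others 2125 to 2280) and Nr1d1 was 42.2 CPM in the same replicate (others 13.1 to 20.9). Replicate 1 was low for Cyp2c50 at 352.3 CPM (others 439.8 to 468) and for Per1 at 13.9 CPM (others 28.5 to 34.0). Replicate 2 was low for Per3 at 1.38 CPM (others 3.30 to 3.98) and for Cebpg at 41.9 CPM (others 52.4 to 56.5), and replicate 5 for Cyp3a11 at 1940 CPM (others 3169 to 3606).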

How the results depend on the processing

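Counts of called genes are given for MTX against control, MTX+nitrate against MTX, and MTX+nitrate against control, in that order, from 521, 613 and 342. DESeq2 called 1141, 1167 and 752 genes, and 5 core clock genes in the first. limma-voom called 1 core clock gene and 4 targets in the first. With no expression filter, 384 genes and 2 core clock genes were called in the second. With 2 groups only, 0 core clock genes were called in the first and 248 genes in the second. With the length and GC trend removed, 238 genes and 3 targets were called in the second, 199 genes in the third, and Cebpa in the first turned to -0.063. limma-voom and the replicate block turned Cyp2a5 in the second to -0.45 and -0.31. Without control 1 and MTX 3 together, 142, 262 and 89 genes were called, with 3 targets in the second, where Dbp turned to 0.67 and Per3 to 0.27, and in the first Cyp7a1 turned to -0.17 and Per1 to 0.19. Without the 2 farthest libraries, r was 0.610 for Dbp with Tef, -0.596 for Dbp with Nfil3 and -0.467 for Tef with Nfil3, as given above.

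Leaving out 1 library at a time gave 86 to 995, 166 to 600 and 99 to 312 genes, 1 to 4, 0 to 0 and 2 to 3 members, 0 to 4, 1 to 2 and 1 to 4 core clock genes, and 1 to 7, 3 to 5 and 2 to 5 targets. The log2 fold change of Dbp ran from -6.11 to -3.33, -1.44 to 0.68 and -5.80 to -4.40. Values that turned sign ran, in the first comparison, from -0.13 to 0.33 for Cyp7a1 (negative without control 1, control 2 or MTX 1), -0.97 to 0.20 for Per1 (positive without control 1) and -0.051 to 0.073 for Cebpa (negative without control 2, control 5, MTX 3 or MTX 4). In the second they ran from -0.21 to 0.28 for Per3 (positive without MTX 3 or MTX+nitrate 2), -0.025 to 0.13 for Atf4 (negative without MTX 5 or MTX+nitrate 4) and -0.77 to 0.37 for Cyp2a5 (negative without MTX 1, MTX 4, MTX+nitrate 3 or MTX+nitrate 4). None of those values was called. Within groups, r ran from 0.803 to 0.904 for Dbp with Tef, -0.874 to -0.660 for Dbp with Nfil3, -0.822 to -0.585 for Tef with Nfil3, -0.0060 (without control 1) to 0.375 for Dbp with Hlf, 0.257 to 0.605 for Tef with Hlf, and -0.477 to -0.173 for Hlf with Nfil3. Beyond the smaller number of libraries, the cause was not tested.

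Same-numbered libraries of different groups correlated across genes at -0.194 to 0.0636. Differently numbered libraries were not compared, so these values cannot decide whether replicate numbers pair the libraries. With a replicate block 142, 129 and 157 genes were called, with 0 core clock genes and 1 target in the first, 2 targets in the second and 1 member in the third. Counts of Dbp in the treated libraries, between 3 and 23 outside MTX replicate 3, limit the precision of its level there.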
